A study of Capra hircus with 2 samples.

Results

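The CD74-high cells of Liaoning cashmere goat skin were 97 of 13051 cells, 19 of 3443 in the coarse-type library, CT-LCG, and 78 of 9608 in the fine-type library, FT-LCG. A cell was chosen when it held at least 3 unique molecular identifiers (UMIs, tags that count each captured RNA molecule once) of CD74 and at least 5 of them per 10000 of its UMIs. It also had to hold fewer than 3 UMIs of the endothelial genes PECAM1, PLVAP and VWF together, and fewer than 2 of the T cell genes CD3E and CD3G together. The chosen cells were split at 100 UMIs of the keratins KRT14, KRT5, KRT1 and KRT10 per 10000, because a droplet that holds both kinds of RNA may have held a leukocyte together with a keratinocyte. Below this limit lay 34 cells (12 CT-LCG, 22 FT-LCG), called keratin-low here. The other 63 (7 CT-LCG, 56 FT-LCG) are called keratin-high.

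Skin from the scapula of healthy goats in anagen, the growth phase of the hair follicle, was dissociated and captured with the 10x Genomics 3′ kit, with 1 library for each fibre type, made by the study's methods from 1 goat each. Sex, age and genotype of the goats were not given in the sources used here, and both libraries went through the same removal of red blood cells and dead cells. The sample labels do not name the fibre type, which was taken from the deposited list of kept cells. The kept cells of CT-LCG summed to 27890472 UMIs and those of FT-LCG to 85400323, and the keratin-low cells among them to 109474 and 96149. No value below has a replicate, and its interval covers counting error only. The libraries shared 11 barcodes among the kept cells, and none of the 97 cells carried a barcode that was kept in the other library.

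Antigen-presenting cells take up proteins, cut them into peptides and show the peptides to helper T cells on MHC class II molecules. The invariant chain, encoded by CD74, guides new class II molecules to the compartment where they are loaded. In skin this work is done by Langerhans cells of the epidermis, dendritic cells and macrophages, and endothelial cells or keratinocytes can also carry class II molecules under inflammatory signals.

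The choice by CD74 was narrow. At least 1 CD74 UMI was found in 831 cells, at least 3 in 167, and the level of 5 per 10000 left 138, of which 39 were left out for endothelial UMIs and 2 for T cell UMIs. Inside the rule, 1 CT-LCG cell and 4 FT-LCG cells had exactly 3 CD74 UMIs. Outside it, 9 CT-LCG cells and 11 FT-LCG cells had exactly 2 at the required level. Of the cells with exactly 2, a UMI of the myeloid genes TYROBP, AIF1, SPI1 or FCER1G was present in 1 of 9 and 3 of 11. Failing the level alone, at 3 or more CD74 UMIs but under 5 per 10000, were 1 CT-LCG cell and 18 deep FT-LCG cells, the latter with a median of 33315.5 UMIs. At the keratin limit, 2 cells in each library lay between 75 and 100 per 10000, and 0 CT-LCG cells and 7 FT-LCG cells between 100 and 125.

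Keratin separated the cells differently in the libraries. In CT-LCG the keratin-high cells held 16 to 65 UMIs of the 4 keratins with a median of 24, and the keratin-low cells 16 to 206 with a median of 23. The counts overlapped, and what differed was the depth, with a median of 1253 UMIs in the keratin-high cells against 6912 in the keratin-low ones. T cells (at least 2 UMIs of CD3E and CD3G) had a median of 22.5 keratin UMIs in CT-LCG, mast-like cells (at least 3 UMIs of CPA3) 19 and fibroblasts (at least 10 UMIs of COL1A1, COL1A2 and COL3A1) 22, close to the median of the 7 keratin-high CT-LCG cells. In FT-LCG the keratin-low cells held 6 to 20 keratin UMIs with a median of 12, and the keratin-high cells 8 to 3511 with a median of 505. There 5 of the 56 keratin-high cells held no more keratin UMIs than the highest keratin-low cell, and all 5 were shallower than the median keratin-low cell, while the other 51 exceeded it. The median keratin-high FT-LCG cell had 14493.5 UMIs and the median keratin-low one 3878.5.

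**Figure D1:**
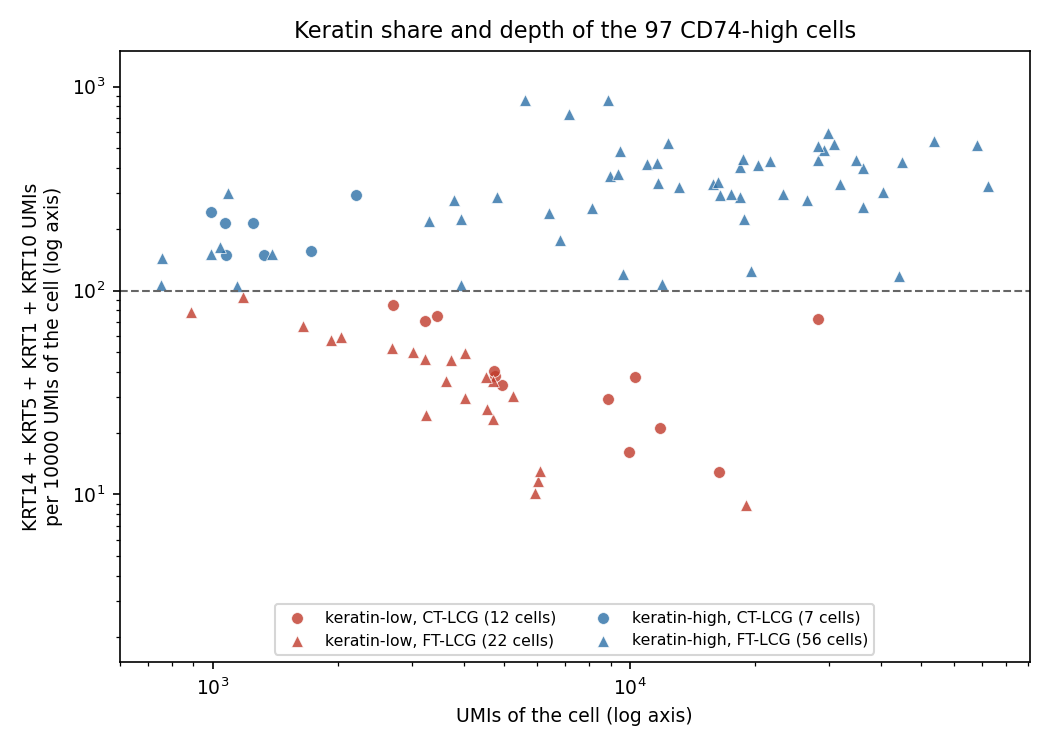
Keratin UMIs (KRT14, KRT5, KRT1 and KRT10) per 10000 UMIs against the UMIs of each of the 97 CD74-high cells, both on log axes. Colours give the keratin-low and keratin-high cells, symbols the library, and the dashed line the limit of 100 per 10000. The 7 keratin-high CT-LCG cells lie at 989 to 2208 UMIs, and the FT-LCG ones reach 72411.

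The label of the cells rests on CD74, CXCL8 and SDS, and the data went against it for SDS. SDS, which encodes serine dehydratase, an enzyme that turns serine into pyruvate, had 0 UMIs in the 12 keratin-low CT-LCG cells, which allows up to 0.274 per 10000. In FT-LCG it had 20 UMIs, of which 19 lay in 1 cell. SDS did not mark the set, and over all kept cells of CT-LCG its 256 UMIs lay in 12 cells, none of them chosen. In FT-LCG 22 of 26 SDS UMIs lay in 3 chosen cells. CXCL8 is described below. The cells are called CD74-high, after the gene that chose them.

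CD74 itself, used by the rule, had 3 to 307 UMIs per keratin-low cell in CT-LCG with a median of 87.5, and 4 to 149 in FT-LCG with a median of 33. Summed over the cells its level was 96.1 per 10000 (95% interval 90.4 to 102) in CT-LCG and 91.0 (85.1 to 97.2) in FT-LCG. The 34 keratin-low cells, 0.349% of CT-LCG (Clopper-Pearson 95% interval 0.180 to 0.608) and 0.229% of FT-LCG (0.144 to 0.346), held 67.8% and 19.8% of all CD74 UMIs of their libraries. The keratin-high cells held 4.25% and 54.0% of them, so most CD74 RNA lay in keratin-low cells in CT-LCG and in keratin-high cells in FT-LCG. These shares are not levels, since in FT-LCG the keratin-high cells summed to 1040677 UMIs and the keratin-low ones to 96149. CD74 and the keratins also chose these sets, so nothing further is read from the shares.

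Beside CD74, the genes furthest above the other kept cells (all kept cells outside the 97 chosen ones, so that the keratin-high cells are left out too) were loci without a gene name from 1 run of neighbours in the genome. They share CD74's contrast with the rule, so their ratios are a description. LOC102180664, LOC106503915, LOC100860813, LOC102189356 and LOC102179937 took the first 5 places of the ranking by the mean log2 ratio of both libraries. LOC102189356 carries the synonym DRA in the reference table, the alpha chain of the class II molecule DR, and the 5 genes lie among 9 neighbours between BTNL2 and ELOVL5 in the order of the ARS1.2 assembly. LOC106503915 is listed there as a long non-coding RNA, and LOC100860813 lies inside the span of LOC102180664, so that reads of this pair may have been split between them. The other 4 neighbours had 0 UMIs in the keratin-low cells. The run of neighbours was chosen after its values were seen.

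LOC102189356 had 0 to 335 UMIs per keratin-low cell in CT-LCG with a median of 89, and 2 to 133 in FT-LCG with a median of 34. Its level was 107 per 10000 (101 to 114) in CT-LCG and 88.9 (83.1 to 95.1) in FT-LCG, against 0.120 and 0.127 in the kept cells outside the 97 chosen ones. T cells stood at 0.106 and 0.285, endothelial cells (at least 3 UMIs of PECAM1, PLVAP and VWF) at 1.15 and 0.952, and keratinocytes (the other cells at or over the keratin limit) at 0.0329 and 0.0866. Cells that met the CD74 limits had been set aside before these classes were made, and the 39 of them with endothelial UMIs stood at 37.8 (CT-LCG) and 11.2 (FT-LCG). LOC102180664 stood at 139 (132 to 146) and 98.7 (92.5 to 105) in the keratin-low cells, and LOC106503915 at 112 (106 to 118) and 90.1 (84.2 to 96.3). After each cell was thinned to 1000 UMIs, at least 2 genes of the run were found in 10 of 12 keratin-low CT-LCG cells and in 21 of 21 FT-LCG cells. The same held in 0.298% of the keratinocytes of CT-LCG and 0.470% of those of FT-LCG.

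A second run of neighbours, from BRD2 to GCLC, held 12 genes, 9 of them with a UMI in the keratin-low cells. It includes PSMB8 and PSMB9, subunits of the immunoproteasome that cuts peptides for MHC class I, and the peptide transporters TAP1 and TAP2. TAP2 was lower than in the other cells, at 0.639 per 10000 (CT-LCG) and 0.624 (FT-LCG) against 1.54 and 1.47. LOC102187998, which lies beside PSMB9 and TAP1, stood at 7.58 per 10000 in CT-LCG and 5.93 in FT-LCG against 0.0133 and 0.0122 in the other cells. LOC102186727 stood at 2.83 and 6.76 against 0.00396 and 0.00570. The reference table gives no synonym for these 2 loci, and this run too was chosen after its values were seen. Also among the 15 genes furthest above the other cells were PLD4, a phospholipase D family member, at 2.01 and 4.06, and IL18BP at 10.6 and 23.4. For IL18BP 55.2% of the CT-LCG UMIs lay in 1 cell and 84.4% of those of FT-LCG in the cell with 19 SDS UMIs, without which its FT-LCG level was 4.54.

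**Figure D2:**
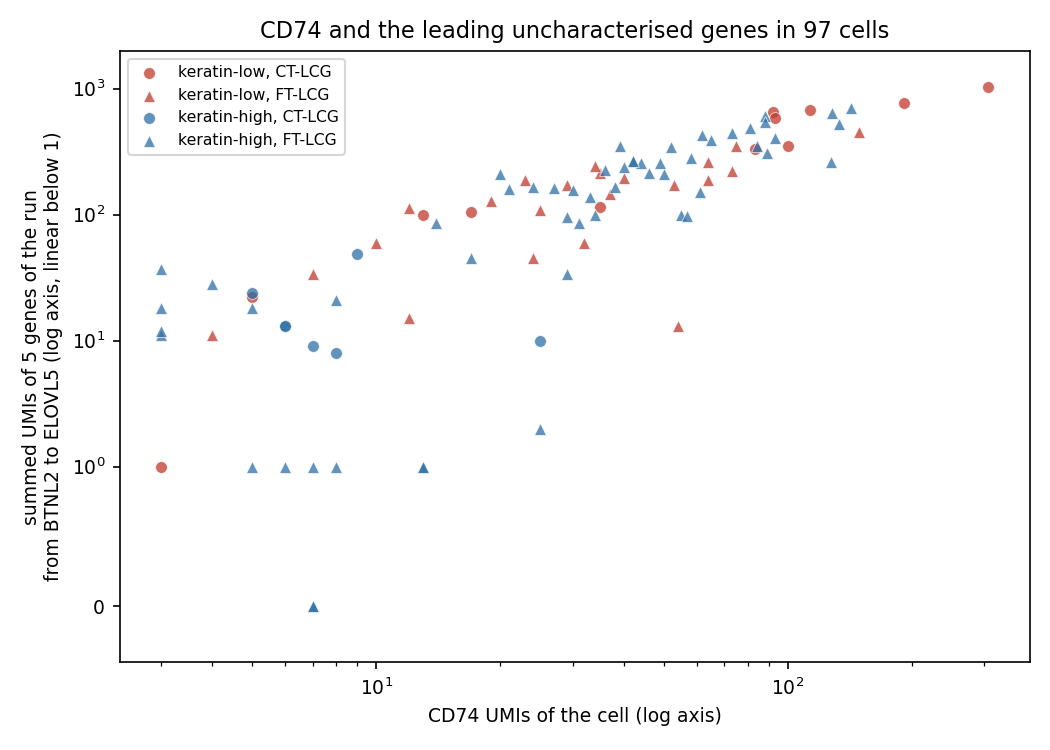
Summed UMIs of LOC102189356, LOC106503915, LOC102179937, LOC102180664 and LOC100860813 against CD74 UMIs in each of the 97 CD74-high cells, on log axes (linear below 1). In the keratin-high FT-LCG cells without a UMI of TYROBP, AIF1, SPI1 or FCER1G the median of the sum is 1, and in the other keratin-high FT-LCG cells it is 219.5.

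Other genes of class II presentation were measured more thinly. Of the 14 genes listed for MHC class II and antigen processing, 13 had a UMI, 5 had at least 20 and were compared, and 5 of 5 stood at least 2-fold above the other kept cells in both libraries. Over all 1521 genes compared the share was 26.4%, and 4.21% stood at least 2-fold below. The cells were chosen by CD74 against the same other cells. The minimum of 20 UMIs was also set on the keratin-low cells, so that a gene sparse elsewhere was compared only if it was high in them. For both reasons nothing is read from these counts, or from the counts and median ratios of the lists below, which are a description. IFI30, a thiol reductase of the loading compartment, stood at 6.03 per 10000 (4.66 to 7.67) in CT-LCG and 5.93 (4.49 to 7.68) in FT-LCG. The proteases CTSS and CTSC stood at 4.20 and 3.47 in CT-LCG and 2.70 and 3.12 in FT-LCG, and in FT-LCG 76.7% of the CTSC UMIs lay in 1 cell. CIITA, the master regulator of class II genes, had a single UMI, in CT-LCG, and CTSL had 0 in both libraries. Of 10 genes of MHC class I and peptide loading, 4 of 6 compared stood 2-fold higher, with B2M, the class I light chain, at 72.6 and 76.5 per 10000, PSMB8 at 2.65 and 4.47, PSMB9 at 1.74 and 2.81 and TAP1 at 1.10 and 2.08. CALR, a chaperone of class I loading, stood at 13.6 and 9.98 and was not among the 4, and ERAP1 had 0 UMIs.

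CXCL8, the chemokine that draws neutrophils, was present in most keratin-low cells and varied widely among them. It had 0 to 506 UMIs per cell in CT-LCG with a median of 27.5, and 0 to 205 in FT-LCG with a median of 40. A CXCL8 UMI was present in 11 of 12 CT-LCG cells and 17 of 22 FT-LCG cells, and 41.1% of the CT-LCG UMIs lay in 1 cell. The summed level was 112 per 10000 (106 to 119) in CT-LCG and 124 (117 to 131) in FT-LCG, against 0.271 and 0.155 in the kept cells outside the 97 chosen ones. Without the deepest 10% of cells the CT-LCG level was 171, and without the FT-LCG cell that held the SDS UMIs the FT-LCG level was 154. At 1000 UMIs per cell, a CXCL8 UMI was found in 9 of 12 keratin-low CT-LCG cells (75.0%, 42.8 to 94.5) and in 16 of 21 FT-LCG cells (76.2%, 52.8 to 91.8). In keratinocytes, with median depths of 1931 and 6041 UMIs before thinning, the share was 2.20% and 2.73%. The CXCL8 shares of keratin-low cells did not overlap those of keratinocytes within counting error in either library.

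CXCL8 was accompanied by other cytokines and chemokines. Of 28 genes in this list 21 were matched, 13 had a UMI in the keratin-low cells and 10 were compared, of which 9 stood 2-fold higher than in the other cells and 1, CCL20, 2-fold lower, beside 26.4% and 4.21% over all genes. IL1A, an alarm cytokine of skin, stood at 10.4 per 10000 (8.59 to 12.5) in CT-LCG and 18.4 (15.8 to 21.3) in FT-LCG, with 9 of 12 and 17 of 22 cells holding a UMI. IL23A, the subunit particular to interleukin-23, stood at 7.67 (6.12 to 9.50) and 8.84 (7.06 to 10.9), and over the alternatives its level ran from 6.55 to 12.5 in CT-LCG and from 5.19 to 10.9 in FT-LCG. CCL5, which attracts T cells, stood at 7.03 (5.55 to 8.79) and 8.94 (7.15 to 11.0). The intervals of the libraries, which leave out the spread between cells, overlapped for IL23A and CCL5 and not for IL1A. After thinning an IL1A UMI was found in 5 of 12 CT-LCG and 13 of 21 FT-LCG keratin-low cells. The intervals of these shares overlapped (15.2% to 72.3% and 38.4% to 81.9%), so no difference between the libraries is read. Keratinocytes held 72.2% (CT-LCG) and 31.9% (FT-LCG) of all IL23A UMIs, and 72.8% and 54.9% of all IL1A UMIs. TNF had 30 UMIs in each library, in 7 cells of each. CCL5 and TNF were also found in T cells, which held 41.2% (CT-LCG) and 6.53% (FT-LCG) of all CCL5 UMIs. After thinning a CCL5 UMI was present in 4 of 12 and 8 of 21 keratin-low cells against 12 of 36 and 7 of 46 T cells, and a TNF UMI in 3 of 12 and 3 of 21 against 8 of 36 and 7 of 46, with overlapping intervals in each case. IL6, IL10, IL12B, IL15, OSM, CXCL9, CXCL10 and CCL26 had 0 UMIs in both, which allows up to 0.274 per 10000 in CT-LCG and 0.312 in FT-LCG. IL12B encodes the partner chain of IL23A in interleukin-23.

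Leukocyte genes were found in nearly all keratin-low cells. At least 2 of the pan-leukocyte genes were present after thinning in 11 of 12 CT-LCG cells and 20 of 21 FT-LCG cells, against 0.559% and 0.170% of the keratinocytes. T cells reached this in 33 of 36 and 36 of 46, and mast-like cells in 44 of 51 and 7 of 8. SRGN, which encodes the granule proteoglycan serglycin, had 1 to 93 UMIs per cell in CT-LCG with a median of 26.5, and 0 to 67 in FT-LCG with a median of 12.5. LAPTM5, LCP1 and CD53 stood at 6.49, 5.85 and 3.01 per 10000 in CT-LCG and at 11.3, 9.36 and 5.10 in FT-LCG. The 8 pan-leukocyte genes compared, of 12 matched, stood 2-fold above the other cells, beside 26.4% of all genes, with a median log2 ratio of 6.10 against 0.52 over all genes. PTPRC, the common leukocyte phosphatase CD45, had a UMI in 7 of 12 and 12 of 22 cells.

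Myeloid genes were present in the keratin-low cells and at or near 0 in the T cells of the same libraries. TYROBP, the signalling adaptor of many myeloid receptors, had 0 to 37 UMIs per keratin-low cell in CT-LCG with a median of 5.5, and 0 to 22 in FT-LCG with a median of 6.5. Its level was 11.3 per 10000 in CT-LCG, from 124 UMIs, and 17.6 in FT-LCG, from 169 UMIs, with 0 in T cells of both libraries, and 3.05 and 4.16 in mast-like cells. FCER1G, AIF1 and SPI1, the last the transcription factor PU.1 that directs myeloid fate, stood at 3.65, 4.38 and 2.74 in CT-LCG and at 5.93, 4.26 and 4.16 in FT-LCG. A UMI of these 4 genes was found in 12 of 12 and 21 of 22 keratin-low cells. After thinning, at least 2 genes of the myeloid core list were present in 7 of 12 CT-LCG cells (58.3%, 27.7 to 84.8) and 15 of 21 FT-LCG cells (71.4%, 47.8 to 88.7), against 0 of 36 and 0 of 46 T cells, which allows up to 9.74% and 7.71% by the exact interval. Over the alternatives the share of keratin-low cells ran from 33.3% to 100% in CT-LCG and from 42.9% to 95.5% in FT-LCG. Mast-like cells reached 2 genes of the list in 8 of 51 (15.7%) CT-LCG cells and 2 of 8 FT-LCG cells, and without thinning in 30 of 51 (58.8%) and 4 of 8. The keratin-low cells did so without thinning in 12 of 12 and 21 of 22. The 5 myeloid core genes compared of 10 matched, these 4 and CSF1R, stood 2-fold higher than in the other cells, beside 26.4% of all genes. ITGAX and ITGAM, the integrins CD11c and CD11b, had 0 UMIs.

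**Figure D3:**
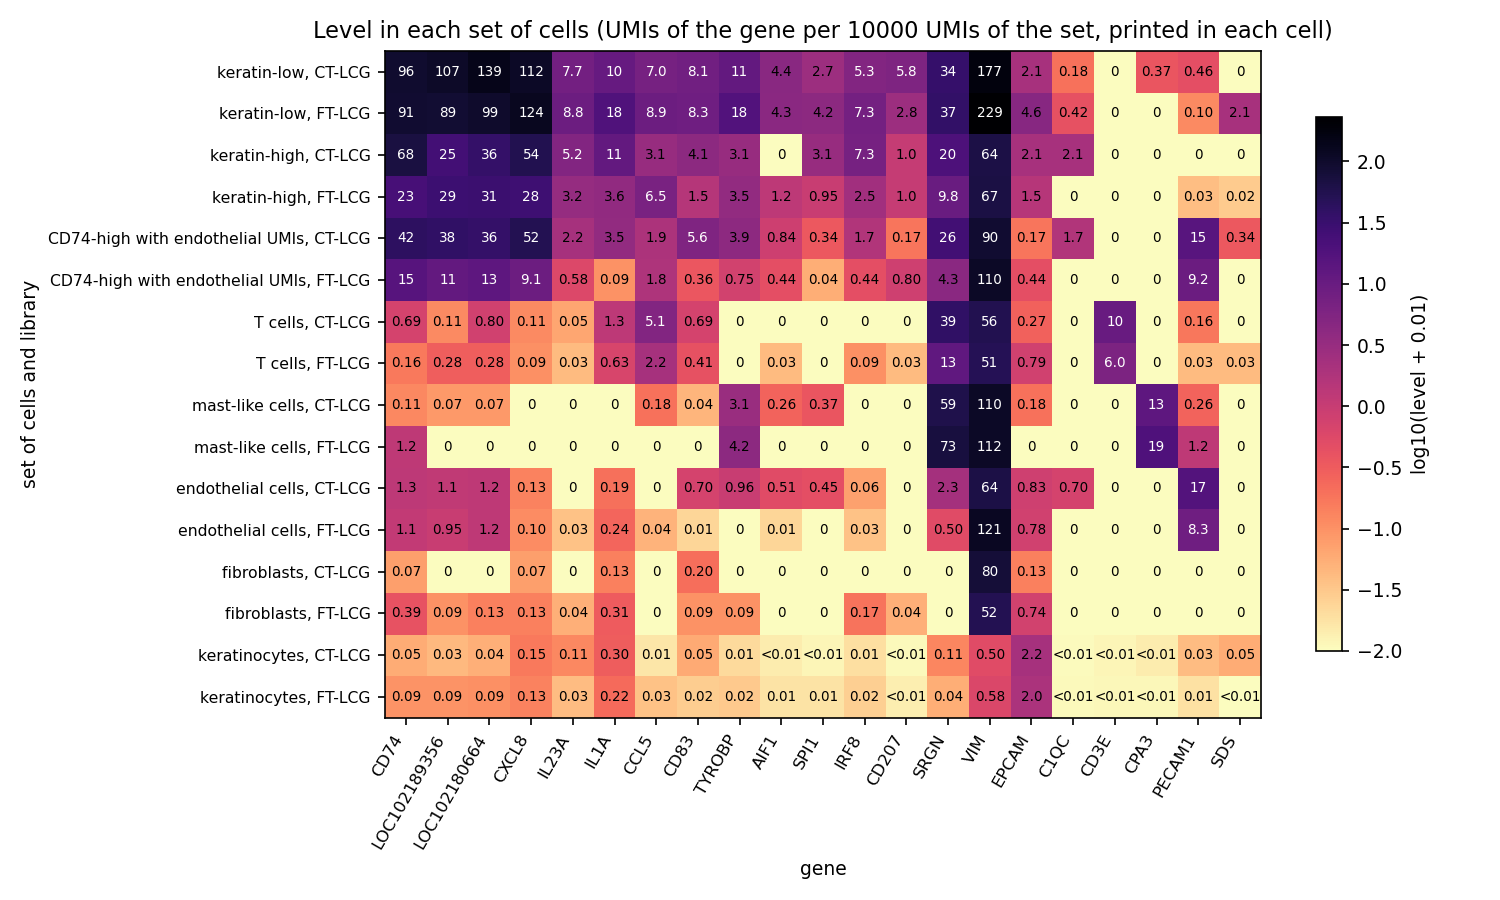
Level of each gene in 8 sets of cells of each library, as UMIs of the gene per 10000 UMIs of the set (printed in each field), coloured on the scale log10(level + 0.01). CD74, PECAM1, CD3E and CPA3 helped to define sets. EPCAM is as high in keratinocytes of CT-LCG as in the keratin-low cells there. TYROBP is 11.3 and 17.6 in the keratin-low cells and 0 in T cells, and CD207 is 5.85 and 2.81 there against 0.00122 and 0.00384 in keratinocytes.

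CD207, which encodes langerin, the lectin that forms the granules of Langerhans cells, lay almost wholly in CD74-high cells in CT-LCG and less so in FT-LCG. It had 0 to 16 UMIs per keratin-low cell with a median of 5 in CT-LCG, and 0 to 5 with a median of 1 in FT-LCG. It was present in 9 of 12 and 15 of 22 of these cells, at 5.85 per 10000 (4.50 to 7.47) and 2.81 (1.85 to 4.09). The keratin-low cells held 92.8% of the 69 CD207 UMIs of CT-LCG but 14.3% of the 189 of FT-LCG, where the keratin-high cells held 56.6% and keratinocytes 14.8%. These shares depend on the number and depth of the cells. At 1000 UMIs per cell, a CD207 UMI was found in 7 of 21 keratin-low and 4 of 53 keratin-high FT-LCG cells. All 9 CT-LCG cells with at least 2 CD207 UMIs were chosen cells, as were 28 of 30 in FT-LCG. CXCL8 and CD207 were found together in 9 of the 12 CT-LCG cells and 13 of the 22 FT-LCG cells.

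Of the other genes listed for Langerhans cells, EPCAM, ID2 and NDRG2 also had UMIs in keratinocytes. EPCAM, an adhesion molecule that Langerhans cells share with epithelium, stood at 2.10 and 4.58 per 10000. After thinning, the list reached 2 genes in 1 of 12 and 9 of 21 keratin-low cells, and in 5.89% and 2.61% of the keratinocytes. Without thinning it did so in 9 of 12 (75.0%) and 18 of 22 (81.8%) keratin-low cells, and in 34.1% and 33.4% of the keratinocytes. Of the 4 genes of this list compared with the other kept cells, CD207 alone stood 2-fold higher, a share near the 26.4% of all genes, and the median log2 ratio was 0.47 against 0.52 over all genes. ID2 stood at 1.10 and 3.85 and NDRG2 at 0.0913 and 2.18.

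Macrophage genes were close to 0. Of 16 matched genes 11 had a UMI and none reached 20, with MRC1 at 4 and 2 UMIs and C1QC at 2 and 4. MARCO, LYVE1, F13A1, MERTK and VSIG4 had 0 UMIs. The complement genes C1QA, C1QB and C1QC lay in 1 keratin-low cell of each library, and neither of these cells had a CD207 UMI. After thinning 0 of 12 and 0 of 21 keratin-low cells carried 2 macrophage genes, with exact upper limits of 26.5% and 16.1%, against 3.17% and 2.27% of the keratinocytes. Without thinning 3 of 12 and 1 of 22 did, against 23.3% and 22.6% of the keratinocytes, so no difference between keratin-low cells and keratinocytes is read from this list. Lists of other antigen-presenting cells held few UMIs. IRF8, a transcription factor of dendritic cells and among the 15 genes furthest above the other cells, stood at 5.30 and 7.28 per 10000, FLT3 had 0 and 5 UMIs, ZBTB46 2 and 1 and BATF3 0 and 2, and CLEC9A, XCR1, CD209 and CD1E had 0. Of the plasmacytoid list IRF7, TCF4 and TLR9 summed to 9 and 10 UMIs, with IL3RA, TLR7 and SPIB at 0. For B cells, BANK1 had 5 and 2 UMIs, CD79A and BLK had 1 and 0 each, and CD79B, MS4A1, PAX5 and JCHAIN had 0.

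Genes of maturation and T cell co-stimulation were present in part. The 6 co-stimulation genes compared, of 11 listed, stood 2-fold above the other cells, beside 26.4% of all genes, and the other 5 had too few UMIs to compare. CD83, a surface marker of activated dendritic cells, stood at 8.13 per 10000 (6.53 to 10.0) in CT-LCG and 8.32 (6.60 to 10.4) in FT-LCG, CD86, a ligand of CD28, at 3.01 and 3.22, ICAM1 at 4.57 and 2.91 and CD40 at 1.28 and 1.35. CD80 had 1 UMI in each library. Of the mature dendritic cell list, RELB stood at 1.83 and 1.04, FSCN1 at 0.913 and 0.520 and CRLF2 at 1.00 and 0.416, and CCL22, CCL17, CCL19, CCL21 and EBI3 had 0 UMIs. CCR7, the receptor that leads dendritic cells to the lymph node, had 7 UMIs in 3 CT-LCG cells and 0 in FT-LCG, whereas LAMP3 had 3 UMIs in 2 CT-LCG cells and 15 in 10 FT-LCG cells.

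The NF-kB pathway carries signals of injury and infection to the nucleus, and its genes were compared as a description only. Of 15 listed, 10 were compared and 6 (NFKBIA, BIRC3, NFKB1, NFKB2, NFKBIE and NFKBID) stood 2-fold above the other cells, beside 26.4% of all genes. The median log2 ratio of the list was 1.56 against 0.52 over all genes. NFKBIA, the inhibitor that the pathway induces, had 11 to 235 UMIs per cell in CT-LCG with a median of 56, and 0 to 63 in FT-LCG with a median of 16.5. It stood at 75.5 per 10000 (70.5 to 80.9) and 48.6 (44.3 to 53.2), and these intervals did not overlap. NFKBIA was also higher in CT-LCG in the other kept cells, at 21.8 against 17.4, and 235 of its 827 UMIs in the keratin-low CT-LCG cells lay in the deepest cell. BIRC3, an inhibitor of cell death, stood at 11.9 and 11.0. REL and NFKBIZ, which were not among the 6, stood at 5.94 and 5.39 in CT-LCG and 4.58 and 4.06 in FT-LCG. Of 12 immediate early genes compared, 0 stood 2-fold higher and 2, JUN and EGR1, stood 2-fold lower, beside 26.4% and 4.21% over all genes, with JUND at 14.6 and 16.8, FOS at 13.4 and 16.5, JUNB at 13.6 and 13.0 and a median log2 ratio of -0.50 for the list against 0.52 over all genes.

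Receptors and sensors were sparse. TNFRSF1B, a TNF receptor, stood at 7.49 and 7.18 per 10000. It was the only 1 of 14 matched chemokine and cytokine receptors with enough UMIs to compare. TNFRSF1B stood at least 2-fold above the other cells, beside 26.4% of all genes. The receptor list summed to 12.1 and 12.9 per 10000 against 2.12 and 1.94 in the other kept cells. CSF2RA, the GM-CSF receptor, had 7 and 11 UMIs, IL1R2 8 and 10, and TGFBR1 was present in 6 cells of each library, while CCR6 and CXCR1 had 0. The 14 pattern recognition receptors and adaptors summed to 7 and 9 UMIs, with 3 of the adaptor MYD88 in each library and TLR4 and NLRP3 at 0. Their sum was 0.639 and 0.936 per 10000 against 0.992 and 0.635 in the other kept cells. The interferon response list, led by IFI6, summed to 3.47 and 2.60 per 10000 against 1.98 and 1.58. The 9 cell cycle genes, led by PCNA, summed to 2.01 and 1.25, below the 3.79 and 4.45 of the other kept cells. In the serine and glycine list, SDS made up 20 of the 27 FT-LCG UMIs, and of the 11 in CT-LCG 4 were of PSPH, 3 of SHMT2 and 3 of GCSH.

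Markers of other lineages were checked in the keratin-low cells. The rule itself limited CD3E, CD3G, PECAM1, PLVAP, VWF and the keratins KRT14, KRT5, KRT1 and KRT10, so low values of the T cell, endothelial, basal and suprabasal lists were in part fixed by the choice, and nothing is read from them. CD3D, CD3E and CD3G had 0 UMIs, and the T and NK list summed to 10 UMIs (CT-LCG) and 3 (FT-LCG), with CD2 at 3 and 1, NKG7 at 3 and 0 and CD5 at 1 and 2. The endothelial list held 6 UMIs and 1, of PECAM1 and EGFL7, and the pericyte and smooth muscle list 0 and 3. The melanocyte list held 2 UMIs and 1, all of MITF, with PMEL, MLANA, DCT and TYR at 0. The mast cell list, led by HPGDS, held 25 and 11 UMIs, of which 16 of CPA3, KIT, HDC and MS4A2 lay in 1 CT-LCG cell. The fibroblast list summed to 54 UMIs (CT-LCG) and 9 (FT-LCG), of which POSTN made up 53 and 6. In CT-LCG 49 of the POSTN UMIs lay in the deepest cell, described below. The hair follicle list, led by TCHH and KRT25, summed to 4.75 and 2.91 per 10000 against 8.13 and 23.1 in the other cells. The basal list, led by KRT14, stood at 23.7 and 16.3 against 79.2 and 236, and the suprabasal list, led by CST6 and LGALS7 (in FT-LCG 83.5% and 57.9% of them in 1 cell), at 42.3 and 101 against 708 and 568. Their part in the results was not tested.

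Among the 34 keratin-low cells, the level of most genes of the run from BTNL2 to ELOVL5 followed that of CD74 more closely than the level of CXCL8 did. Over these cells the Spearman correlation of the level with that of CD74 was 0.76 for LOC102189356, 0.73 for LOC106503915, 0.72 for LOC102180664, 0.78 for LOC100860813 and 0.45 for LOC102179937, and 0.19 for CXCL8. With CXCL8 it was 0.54 for IL1A, 0.51 for IL23A, 0.52 for NFKBIA, 0.52 for CD83 and 0.49 for CCL5. The cells of both libraries enter each value, and they share their library and differ in depth. CD74 chose the cells, and the run was picked after its values were seen, so the values are a description from which nothing is read.

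5 cells stood apart. The deepest CT-LCG keratin-low cell, with 28329 UMIs or 25.9% of the set, held 206 UMIs of the 4 keratins against the median of 23, 136 of the 163 KRT14 UMIs, 49 of 53 of POSTN and 11 of 15 of S100A8, beside 191 of CD74, 110 of CXCL8 and 34 of TYROBP. The deepest FT-LCG keratin-low cell, with 19051 UMIs or 19.8% of the set, held 54 CD74 UMIs but 0 of CXCL8, 0 of TYROBP, 1 of VIM and 2 of LOC102189356. It held all 363 S100A8 UMIs, all 255 of S100A9 and all 199 of KLK6 in the FT-LCG set, 401 of 480 CST6 UMIs and 190 of 225 of IL18BP, the last a secreted binder of interleukin-18. It also held 19 of the 20 SDS UMIs, with 6 UMIs of KRT14 and 2 of KRT10. In CT-LCG 1 cell of 4955 UMIs held 3 CD74 UMIs, 0 of LOC102189356 and 0 of CXCL8 beside 4 of CPA3, 7 of KIT and 4 of MS4A2. The keratin-low cells with C1QC, 1 in each library, held 5 and 4 CD74 UMIs, 3 and 0 of CXCL8 and 0 of CD207. Without the SDS cell the FT-LCG level of TYROBP was 21.9 per 10000.

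**Figure D4:**
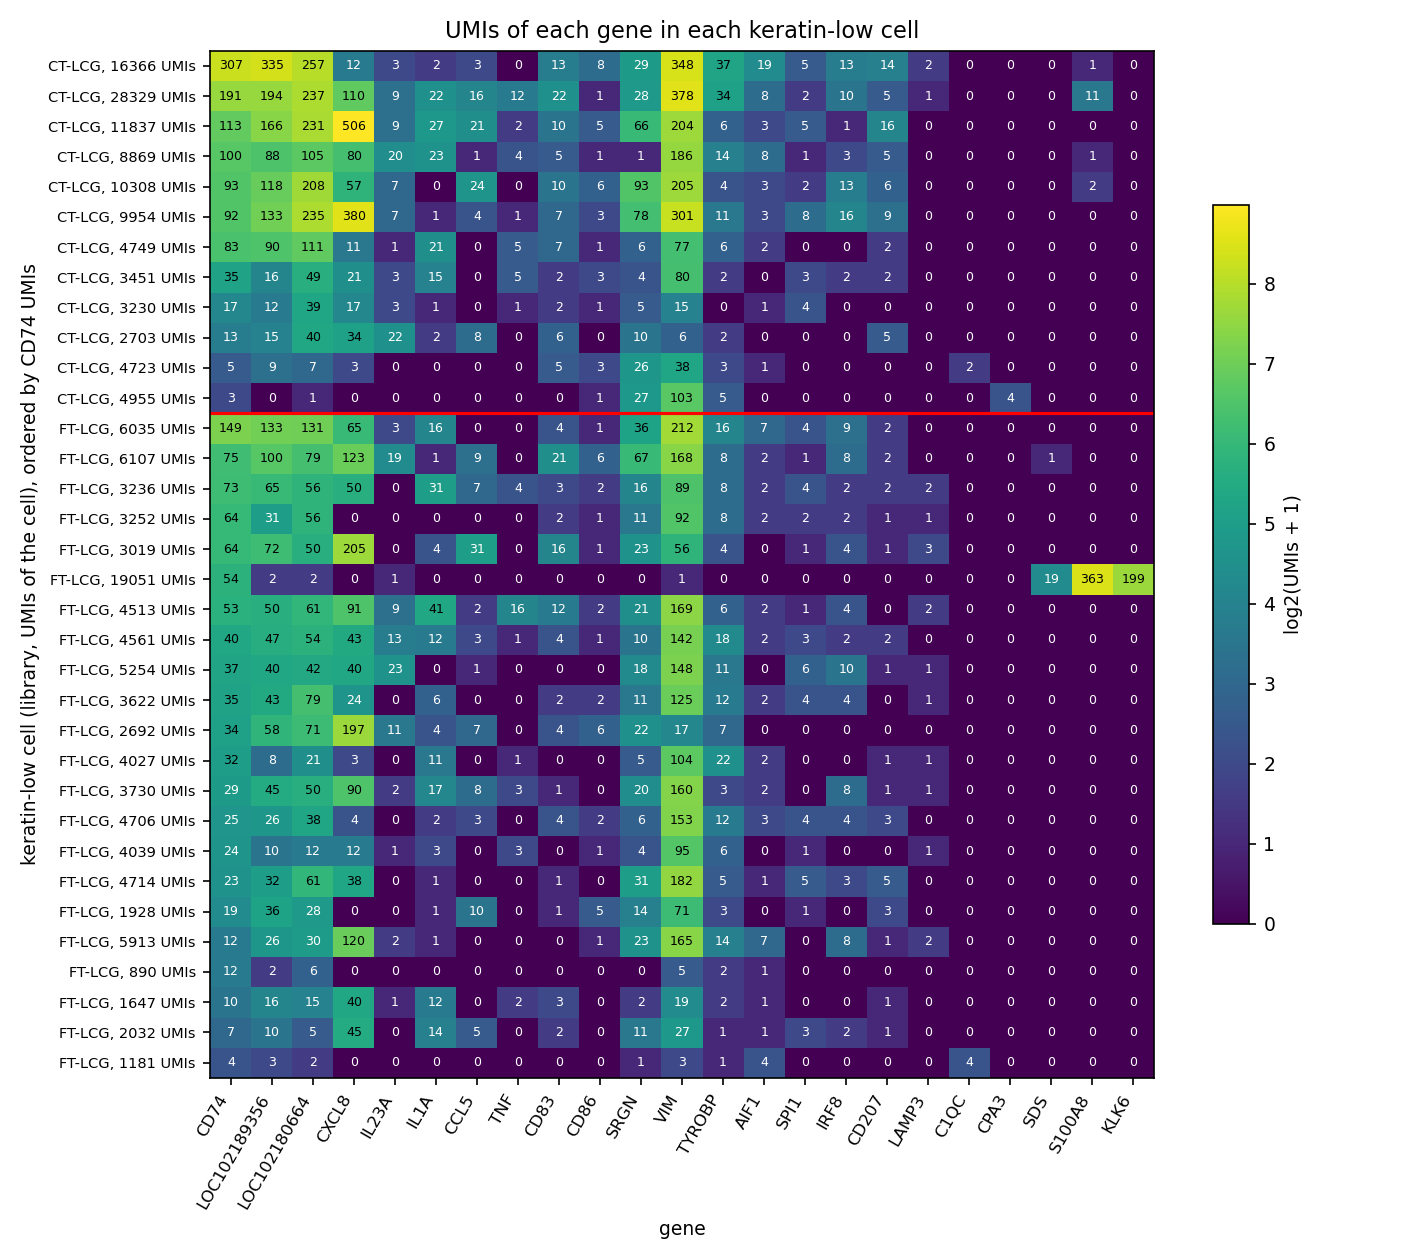
UMIs of 23 genes (columns, printed in each field and coloured as log2(UMIs + 1)) in each of the 34 keratin-low cells (rows, with the library and the UMIs of the cell), ordered by CD74 within each library. The red line parts 12 CT-LCG cells from 22 FT-LCG cells. The FT-LCG cell with 19 SDS UMIs holds 363 of S100A8 and 0 of CXCL8, and the CT-LCG cell with 506 CXCL8 UMIs holds 16 of CD207.

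The keratin-high FT-LCG cells were parted by the presence of a myeloid UMI, a split made with the values in view that also follows depth. In 44 of 56 a UMI of TYROBP, AIF1, SPI1 or FCER1G was found, and these cells held a median of 43 CD74 UMIs, 219.5 UMIs of the 5 genes of the run from BTNL2 to ELOVL5, 33 of CXCL8 and 170.5 of VIM, at a median depth of 18405.5 UMIs. The 21 keratin-low FT-LCG cells with such a UMI held medians of 32, 171, 40 and 104 at a depth of 3730 UMIs, so that the median CD74 level was 28.4 per 10000 in the keratin-high cells and 87.7 in the keratin-low ones. The ranges of UMIs overlapped for each of CD74, the run and CXCL8, beside a median of 303 keratin UMIs per 10000 in these keratin-high cells. In the other 12 the medians were 7 for CD74, 1 for the run, 0 for CXCL8 and 0 for VIM, at 8008 UMIs per cell. The run ranged from 0 to 86 UMIs in these 12 cells and from 12 to 706 in the 44, so the groups overlapped. Over all 56 cells KRT14 had 0 to 2503 UMIs with a median of 261.5, and stood at 235 per 10000 (232 to 238) against 165 in keratinocytes of FT-LCG. POSTN, which encodes the matrix protein periostin, stood at 13.1 against 9.67, and KRT1, a keratin of the layers above the basal one, at 17.1 against 88.4. KRT14 and KRT1 are part of the keratin sum whose limit defined both sets, so nothing is read from their levels. CCL20 had 596 UMIs in 17 cells, with 25.8% in 1 cell.

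The 7 keratin-high CT-LCG cells were shallow. They held 5 to 25 CD74 UMIs with a median of 7, and a median of 3 of LOC102189356, which was present in 7 of 7. CXCL8 was present in 5 of 7 with 52 UMIs, or 53.9 per 10000 (40.2 to 70.6), and 34 of the 52 lay in 1 cell of 1075 UMIs. TYROBP was present in 2 of 7 with 3 UMIs and AIF1 in none. KRT1 stood at 83.9 and KRT14 at 38.3. After thinning, at least 2 myeloid core genes were found in 0 of 6 of them, which allows up to 45.9% by the exact interval, and in 14 of 53 keratin-high FT-LCG cells. In the same 6 cells at least 2 pan-leukocyte genes were found in 5 and at least 2 genes of the run from BTNL2 to ELOVL5 in 6, and without thinning the myeloid core list was reached in 2 of 7. Among the 41 CD74-high cells that were left out, those with endothelial UMIs held 307 CXCL8 UMIs in 2 of 6 CT-LCG cells and 206 in 4 of 33 FT-LCG cells. TYROBP had 23 UMIs in 2 of the 6 and 17 in 1 of the 33.

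CT-LCG and FT-LCG were compared within the keratin-low cells, for which the question is whether the cells of the coarse and the fine type differ. With 1 library for each type there is no test. Of 1521 genes with at least 20 UMIs, 145 or 9.53% stood at least 2-fold higher in FT-LCG and 201 or 13.2% at least 2-fold higher in CT-LCG, with a median log2 ratio of FT-LCG to CT-LCG of -0.10. Without the SDS cell the counts were 98 and 174. In all other kept cells the same genes had a median of -0.16. CXCL8 was 0.14 higher in FT-LCG on the log2 scale, and lower there under 3 other choices of cells.

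7 of the 8 genes furthest above CT-LCG in FT-LCG came mostly from the SDS cell. KLK6, a serine protease of the upper epidermis, had 0 CT-LCG UMIs against 199 of FT-LCG, all in that cell, and was at least 75.5-fold higher against the limit of 3 counts. KLK10, CRYAB, S100A9, CST6, S100A8 and LOC102169149 held 83.5% to 100% of their FT-LCG UMIs in it. Without that cell S100A8, S100A9 and LOC102169149 had 0 UMIs in FT-LCG and the ratio turned, with S100A8 at 15 UMIs in CT-LCG. There too 73.3% of the S100A8 UMIs and 75.0% of those of LOC102169149 lay in 1 cell, so that neither direction is read. CST6 kept its direction at 10.2 per 10000 against 1.46, and it stood at 94.8 (FT-LCG) and 23.2 (CT-LCG) in the other kept cells. LOC102180880 had no UMI in that cell and stood at 19.1 in FT-LCG and 2.01 in CT-LCG, present in 14 of 22 and 5 of 12 cells, with 0.0172 and 0.00900 in the other kept cells.

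Of the 8 genes furthest above FT-LCG in CT-LCG, most differed in the same direction in the other kept cells. LOC108633505 stood at 16.9 per 10000 (CT-LCG) and 0.728 (FT-LCG), and at 15.2 and 0.432 in the other cells. SLC38A2, an amino acid transporter, DNAJA1, a co-chaperone, NCL, which encodes nucleolin, and BAZ1A, a chromatin remodelling subunit, had log2 ratios of FT-LCG to CT-LCG of -1.58, -1.28, -1.25 and -1.15, and of -1.23, -1.46, -1.25 and -1.50 in the other cells. DUSP1, an immediate early phosphatase, differed by -1.36 (-1.88 to -0.87) in the keratin-low cells and by 0.12 in the others. RAP1B, a small GTPase, differed by -1.25 against -0.52. Without the SDS cell RAP1B, BAZ1A and LOC102182115 were under 2-fold, at log2 ratios of -0.93, -0.92 and -0.80. LOC102182115 stood at 46.4 and 21.4, and 48.1% of its FT-LCG UMIs and 30.3% of its CT-LCG UMIs lay in 1 cell.

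**Figure D5:**
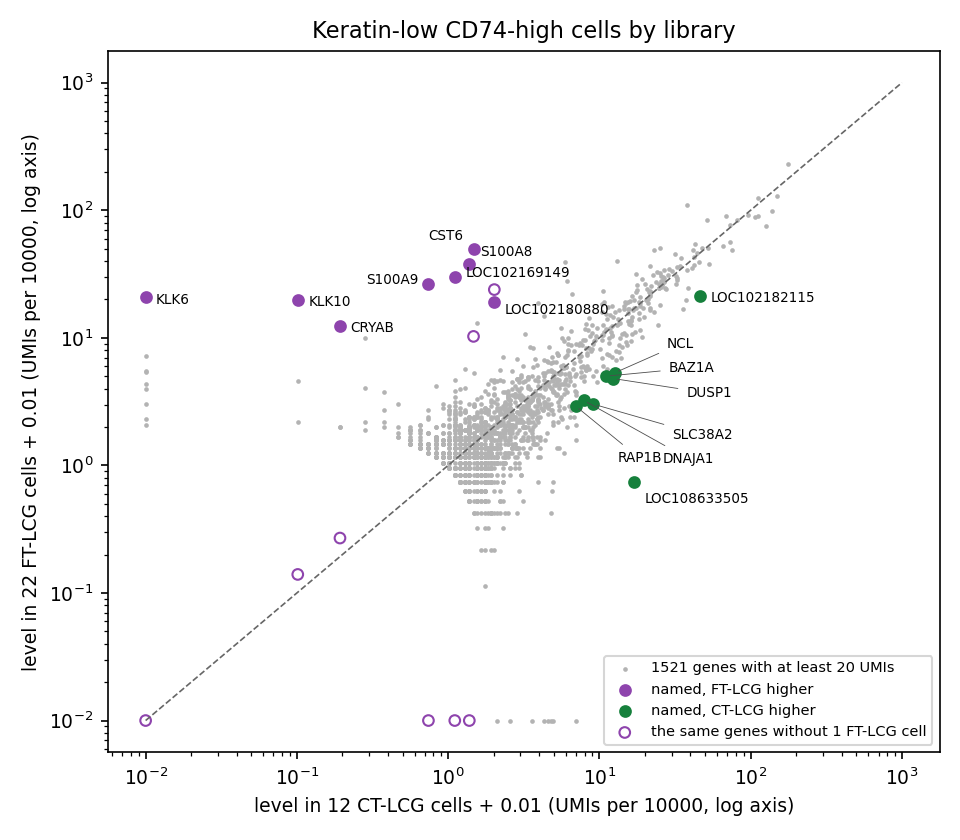
Level in the 22 FT-LCG keratin-low cells against that in the 12 CT-LCG ones for 1521 genes (grey), both as UMIs per 10000 with 0.01 added, on log axes, with the line of equal levels dashed. Filled points are the 8 genes named each way, and open circles give the genes higher in FT-LCG without the SDS cell. KLK6 falls from 20.7 to 0, and LOC102180880 moves from 19.1 to 23.9.

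By list, the genes that differed 2-fold stand beside shares of 9.53% and 13.2% over all genes. Of 10 cytokine and chemokine genes 2, CCL20 and IL1B, stood higher in FT-LCG and 0 in CT-LCG, of 10 NF-kB genes 1, TNFAIP3, and 0, and of 12 immediate early genes 0 and 1, DUSP1. Of the CCL20 UMIs 79.3% lay in the SDS cell. The 5 genes compared of the MHC class II list, the 5 genes of the run from BTNL2 to ELOVL5, the 6 co-stimulation genes and the 8 pan-leukocyte genes had 0 either way, although LOC102179937 of the run passed 2-fold in FT-LCG without the SDS cell, at a log2 ratio of 1.04. Of the 5 myeloid core genes 1, CSF1R, stood higher in FT-LCG. Of the 4 Langerhans cell genes 3, EPCAM, ID2 and NDRG2, stood higher in FT-LCG and 1, CD207, in CT-LCG. Without the SDS cell CD207 was at 3.50 per 10000 in FT-LCG, a log2 ratio of -0.74, and no longer differed 2-fold. Of 8 suprabasal genes 3, KRTDAP, DMKN and CST6, stood higher in FT-LCG. KRTDAP was under 2-fold without the SDS cell, at a log2 ratio of 0.66. SDS, the only gene compared of the serine and glycine list, also stood higher in FT-LCG. Of its 20 FT-LCG UMIs 19 lay in the SDS cell. Higher in CT-LCG were IFI6 and POSTN, each the only gene compared of its list, COL17A1 of 3 basal genes and TCHH of 2 hair follicle genes. For POSTN this rests on 1 cell with 49 of its 53 CT-LCG UMIs, since the other 11 CT-LCG cells held 4 and the 22 FT-LCG cells 6. The 2 monocyte and neutrophil genes compared, S100A8 and S100A9, stood higher in FT-LCG through the SDS cell, and FCN1, CSF3R, CXCR2 and MPO had 0 UMIs.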

How the data were processed

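Skin cells of 2 libraries, CT-LCG and FT-LCG, were analysed. The authors made the UMI counts with Cell Ranger (3.0.2 per the file header) and deposited them without normalization, with both libraries in 1 matrix and a list of kept cells. For the goat genome, no build or annotation was found in these sources. The submitters' processing notes also name bcl2fastq and Seurat 3.1.1, and they list GRCh38 and GRCm38, which are not goat builds. The list kept 13051 of 17299 barcodes. Kept cells had at least 501 genes and the others at most 500.

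UMIs were summed over the cells of a set in a library and divided by all UMIs of the set (level, per 10000), with exact Poisson 95% intervals. Shares have Clopper-Pearson 95% intervals, and ratios exact conditional binomial ones. All cover counting error only. Where a set has 0 UMIs of a gene, the limit is 3 UMIs, and where 0 cells carry a list, the limit is the upper end of the exact interval. With 1 library per fibre type no test was run. For shares, cells were thinned to 1000 UMIs, which left out 1 keratin-low cell. No doublet caller was run, and the keratin limit took its place. Ratios of levels had 0.01 per 10000 added and needed at least 20 UMIs in the keratin-low cells of both libraries together.

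The members, the 29 gene lists (302 of 336 genes matched by symbol) and the comparisons were chosen with earlier results of these data known. Named were the genes of the rule, up to 4 leading genes of each list and its markers at 0, the 15 genes furthest above the other cells (at least 50 UMIs), and 8 genes each way between the libraries (at least 100 UMIs). Some genes that this rule names are not reported here. Gene order and synonyms came from RefSeq (ARS1.2), in which 27103 of 27137 features were found. The alternatives were other CD74, keratin, endothelial and T cell limits, at least 1000 genes, means over cells, 10% free RNA subtracted, no deepest 10% of cells, each library alone, other UMI minimums, thinning to 500 or none, and 3 or 1 genes of a list. Ratios were tested on simulated data. Python 3.11.15, numpy 2.4.6, scipy 1.17.1, pandas 2.3.3 and matplotlib 3.10.9 were used.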

Additional observations from a re-analysis of the deposited data

Results flagged for a closer look

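Barcodes outside the list of kept cells were not part of the comparisons. The CD74 rule was met by 13 of 4248 of them (0.306%, Clopper-Pearson 95% interval 0.163 to 0.523), 3 in CT-LCG and 10 in FT-LCG. They held 483 to 954 UMIs with a median of 578, and 3 to 15 CD74 UMIs with a median of 7. All 13 lay over the keratin limit. A UMI of LOC102189356 was found in 12 of them and one of TYROBP, AIF1, SPI1 or FCER1G in 9, and CXCL8 in 0.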

How the results depend on the processing

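Of 352 alternative values for 31 results, 279 stayed within the interval or within 1.5 times of the value reported, 70 moved and 3 changed sign. The number of keratin-high CT-LCG cells was 11 and 4 with keratin limits of 50 and 200 per 10000 and 2 with at least 1000 genes, and that of keratin-low FT-LCG cells was 34 at the limit of 200. The CXCL8 level of keratin-low cells was 123 in CT-LCG with CD74 at 6 UMIs or more. In CT-LCG and FT-LCG it was 146 and 106 with the keratin limit of 50, 95.9 and 106 with no endothelial UMI, 106 and 152 as a mean over cells, and 123 and 136 after free RNA was subtracted. It was 171 in CT-LCG without the deepest cells, and in FT-LCG 68.3 with the keratin limit of 200 and 154 without the SDS cell, alone or with the CPA3 cell, which were left out after the data were seen. The log2 ratio of CXCL8 between FT-LCG and CT-LCG was -0.47 with the keratin limit of 50, -0.72 with that of 200 and -0.47 without the deepest cells. The share of keratin-low cells with the myeloid core list was 100% in CT-LCG and 95.5% in FT-LCG without thinning, and in FT-LCG 45.5% at 500 UMIs, 42.9% with 3 genes and 95.2% with 1 gene. The numbers of genes 2-fold higher in FT-LCG and CT-LCG were 240 and 345 with the keratin limit of 200, 46 and 55 with at least 50 UMIs, and 2740 and 3158 with no minimum. The causes were not tested, but the last 2 follow from the genes compared. Depth limits single genes, since 3 counts are 0.274 per 10000 in CT-LCG and 0.312 in FT-LCG. No paired analysis was possible because each fibre type has 1 library and the 2 samples of the labels form 1 group.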
